A study of Mus musculus with 9 samples.

Results

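A set of 42 genes that act close to the T cell receptor (TCR) was examined in 3 subsets of mouse γδ T cells, the lymphocytes with a γ and a δ chain in their TCR. Members were listed genes with at least 1 row of the deposited array table that names no other gene, which 40 of the 42 had, among 22180 genes tested in all. Cd247 and Lck are not analysed here. Where a gene had several rows the row of highest mean was used, which concerned Dgkz alone.

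The cells came from C57BL/6 mice, with no treatment, age or other genotype given in the labels. The intraepithelial lymphocytes (IELs) were isolated from small intestinal epithelium, and the Naive-like and Type-1 cells from peripheral lymph nodes (axillary, brachial and inguinal). Each subset had 3 Affymetrix arrays, described by the submitters as biological replicates. The number of mice behind an array is not stated, and p-values cover the spread among these arrays, part of which may be technical. Subset and tissue differ together in both comparisons with IELs and cannot be told apart there, and the sorting gates are not given beyond a list of antibodies.

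When a TCR binds its ligand, the kinase Lck phosphorylates the CD3 chains, which carry the signal for receptor chains with almost no cytoplasmic part of their own. Zap70 then docks on the CD3 chains and phosphorylates the adaptors LAT and SLP-76 (Lcp2), on which phospholipase C, exchange factors for Ras and Rac, and the NF-κB and cytoskeletal branches assemble. Phosphatases, ubiquitin ligases, the kinase Csk and diacylglycerol kinases hold the pathway in check. Intestinal γδ IELs live beside epithelial cells and are known for an activated yet restrained state.

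All values are log2 expression on which 1 unit is a 2-fold change, and n = 3 arrays per subset throughout. Differences are given with their standard error, and a gene "passed", "rose" or "fell" only if limma's Benjamini-Hochberg adjusted p over all 22180 genes was under 0.05. Subsets are compared gene by gene, and levels of different genes are not tested against each other. Since RNA came from sorted populations, fewer expressing cells and less RNA per cell cannot be told apart.

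Cd3d, Cd3e and Cd3g lay between 10.06 and 12.32 on all 9 arrays, and Cd4 between 3.10 and 3.81. Cd8b1, from the same list of αβ T cell genes as Cd4, lay between 6.27 and 10.50. Of 12 listed γδ T cell genes 7 were measured, the 4 general ones (CD3 chains and Ptprc) and Trgv5, Trgv6 and Sox13. These last read 2.82 to 4.95, 3.76 to 5.73 and 5.15 to 6.14, beside a median of gene means of 4.52. The γ and δ constant chains are not analysed here, so the high values are those of general T cell genes. All 8 measured B cell markers except Cd79b stayed below 5 on every array, and none of the 8 passed in any comparison. Array medians ran from 4.25 to 4.43. IEL replicate 1 stood apart: it was the lowest of the 3 IEL arrays for 31 of the 40 members, against 39.7% of all genes, and had the lowest array weight (0.441). The description of replicate 3 of each subset carries a date code that the other arrays lack. Descriptions also sort the arrays of a subset into a lower-numbered, a higher-numbered and a date-coded one, called the description set here. Where leaving out IEL replicate 1, or using the 6 uncoded arrays alone, ends the call of a member or of another named gene, or lets a member pass, this is stated with the result or with the counts.

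In IELs 10 of the 40 members (25%) differed from Naive-like cells, where 5.19% of all genes passed. Fyn, Lat2, Trat1, Ptpn22 and Ubash3b rose (3.57% of all genes did) and Prkcq, Sit1, Themis, Ubash3a and Dgka fell (1.62%). Against Type-1 cells 7 members (17.5%) passed, beside 5.14% of all genes: Cd3g, Zap70, Lat2 and Trat1 rose in IELs (3.73% of all genes did), and Prkcq, Ubash3a and Dgka fell (1.41%). Between Type-1 and Naive-like cells 1 member (2.5%) passed, Trat1, which fell, beside 0.284% of all genes in either direction and 0.0721% that fell. All 40 members had a mean above the median of gene means, and among the 7143 genes with a mean at least that of the lowest member (Ubash3a) 9.3%, 9.42% and 0.658% passed in these comparisons. Lat2, Trat1, Prkcq, Dgka and Ubash3a differed between IELs and both lymph node subsets. The comparisons share arrays and so are not independent of each other. Members were chosen with earlier results of these data known, which may have raised their shares.

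Higher and lower members were mixed. By sign 17 were higher and 23 lower in IELs than in Naive-like cells, with a median difference of -0.22 beside -0.01 over all genes. Against Type-1 cells 20 were higher and 20 lower in IELs, with a median of 0.01 beside -0.03. In Type-1 against Naive-like cells 12 were higher and 28 lower, at a median of -0.20 beside 0.03 over all genes and -0.10 over the 7143 better expressed ones.

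**Figure D1:**
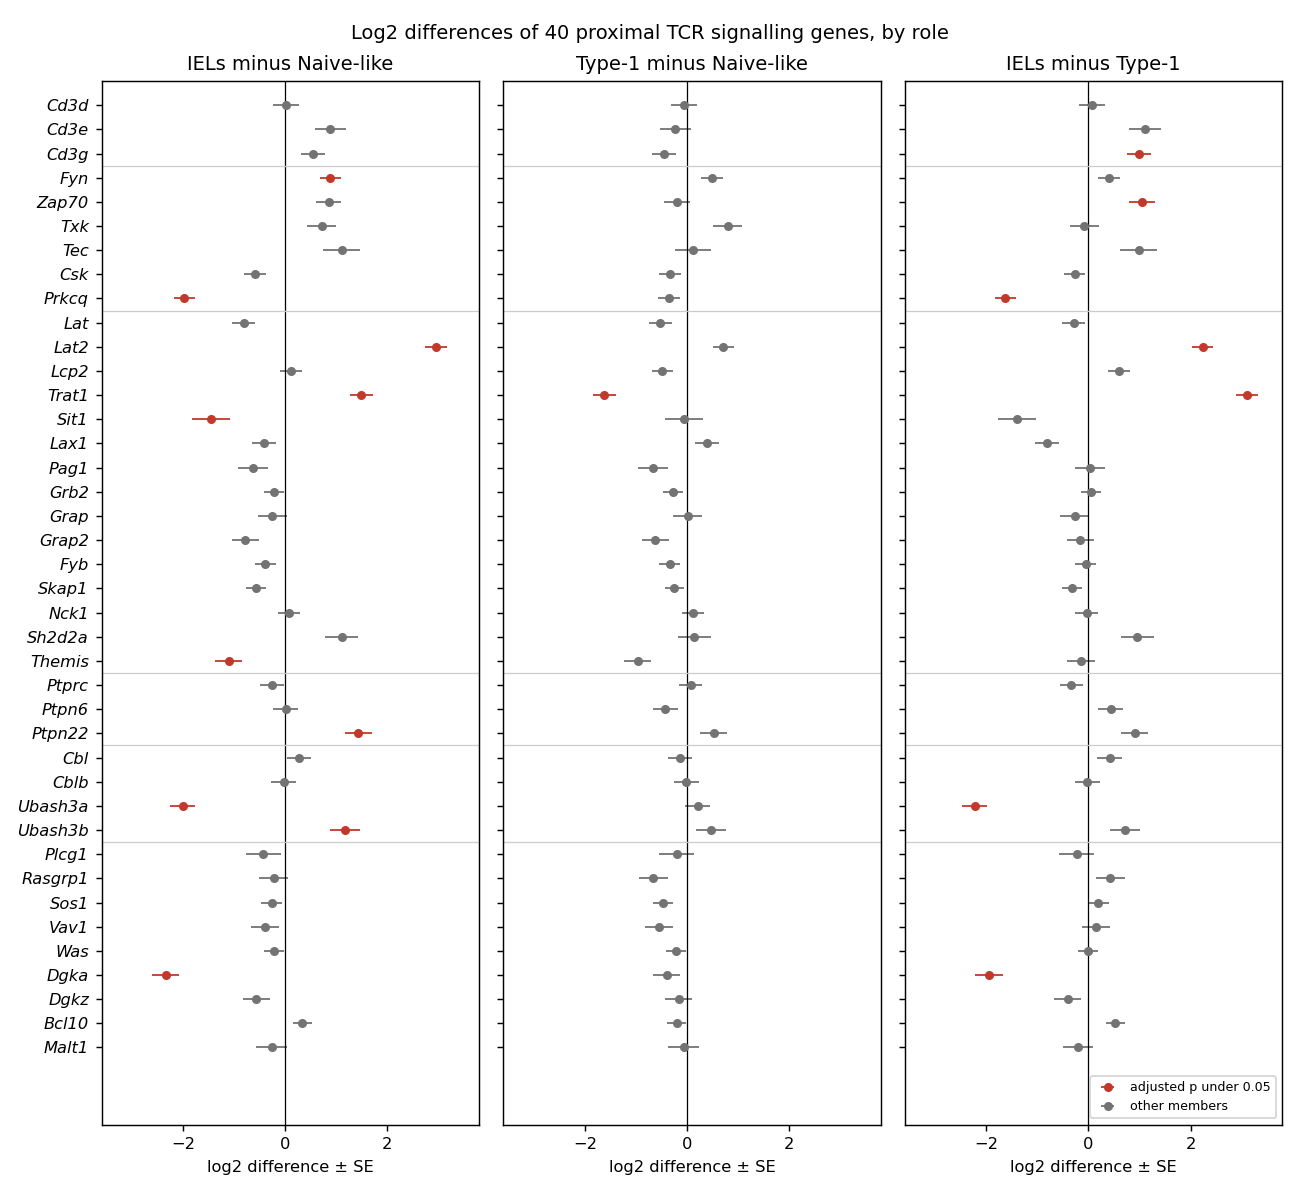
Log2 differences ± SE (horizontal axis) of the 40 members (vertical axis, ordered by role, with lines between roles) in the 3 comparisons, with members at an adjusted p under 0.05 in red. Lat2 and Trat1 lie farthest to the right and Dgka, Ubash3a and Prkcq farthest to the left in both comparisons with IELs, while 39 of 40 members are grey in Type-1 against Naive-like cells.

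Of the 5 members that separated IELs from both lymph node subsets, Trat1, Prkcq and Ubash3a have 1 annotated start each, and their promoters are printed because the 3 genes differed between the same groups, Trat1 higher and the others lower in IELs. They are RefSeq windows of GRCm38.p6 from 250 bases before to 50 after the start, 5′ to 3′ on the gene's strand, with matches on either strand to 4 core motifs in capitals: CCGGAA (ETS), TGTGGT (RUNX), CTTTGA (TCF/LEF) and GGTGTG (T-box).
Trat1, minus strand, chr16:48772013-48772312: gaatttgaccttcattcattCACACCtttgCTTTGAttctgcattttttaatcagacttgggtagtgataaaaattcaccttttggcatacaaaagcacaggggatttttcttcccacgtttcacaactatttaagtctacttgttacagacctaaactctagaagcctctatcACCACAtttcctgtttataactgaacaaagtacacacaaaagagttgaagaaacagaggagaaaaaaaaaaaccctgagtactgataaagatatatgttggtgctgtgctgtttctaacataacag
Prkcq, plus strand, chr2:11172132-11172431: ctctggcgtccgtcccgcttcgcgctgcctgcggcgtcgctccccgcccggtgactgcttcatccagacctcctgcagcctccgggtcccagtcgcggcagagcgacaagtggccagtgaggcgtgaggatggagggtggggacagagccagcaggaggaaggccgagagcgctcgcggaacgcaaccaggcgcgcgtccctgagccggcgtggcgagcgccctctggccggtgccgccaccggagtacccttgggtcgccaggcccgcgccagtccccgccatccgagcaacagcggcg
Ubash3a, plus strand, chr17:31207816-31208115: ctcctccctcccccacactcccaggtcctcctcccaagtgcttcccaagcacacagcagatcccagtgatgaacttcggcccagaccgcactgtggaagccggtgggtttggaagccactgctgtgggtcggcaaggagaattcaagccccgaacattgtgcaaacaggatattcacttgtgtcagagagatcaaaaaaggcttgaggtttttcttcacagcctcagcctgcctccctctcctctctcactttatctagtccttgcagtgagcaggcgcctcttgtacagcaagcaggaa

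The Trat1 window is poor in G and C (35.3%, against a median of 52.7% over 32851 windows) and holds a RUNX, a TCF/LEF and a T-box match, whereas the Prkcq window is rich in them (73.0%) and, like that of Ubash3a (54.7%), has no match. ETS, RUNX, TCF/LEF and T-box letters occur in 14.9%, 16.8%, 16.0% and 19.0% of all windows. In the 19 windows of the 11 called members that have one, they occur in 2, 3, 5 and 7. Some genes have several overlapping windows, a match is letters only, and Lat2 had no window in the table.

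The CD3 chains bring the signalling motifs to the receptor. Cd3g was 11.70, 12.32 and 11.97 in IELs, 11.52, 11.20 and 11.64 in Naive-like cells and 11.27, 11.05 and 10.69 in Type-1 cells. The IEL arrays lay above all other arrays, and Naive-like and Type-1 arrays overlapped. Cd3g rose in IELs by 0.99 ± 0.23 against Type-1 cells (adjusted p = 0.027, limma), and the difference from Naive-like cells, 0.54 ± 0.23, did not pass (adjusted p = 0.29). The call against Type-1 cells ended without IEL replicate 2 or 3 or Type-1 replicate 2 or 3, at differences of 0.83 to 1.01 and adjusted p of 0.067 to 0.13, and with the uncoded arrays alone (0.85, adjusted p = 0.21).

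Cd3e had the same order without passing. Its values were 11.48, 11.97 and 11.71 in IELs, 11.28, 10.06 and 11.19 in Naive-like cells and 10.34, 10.62 and 10.89 in Type-1 cells, so IELs lay above every other array, and the second Naive-like array was the lowest of the 9. The differences were 0.88 ± 0.31 from Naive-like cells (adjusted p = 0.16) and 1.11 ± 0.31 from Type-1 cells (adjusted p = 0.064), and without that Naive-like array the latter passed. With the description set as a term both passed (adjusted p = 0.049 and 0.016). Cd3d did not separate the subsets. It read 11.66, 11.10 and 10.75 in IELs, 11.22, 10.78 and 11.47 in Naive-like cells and 11.15, 11.00 and 11.15 in Type-1 cells, with group means of 11.17 ± 0.46, 11.15 ± 0.35 and 11.10 ± 0.08 (SD) and the widest spread in IELs.

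Among the kinases, the protein kinase C isoform θ encoded by Prkcq, which links the TCR to NF-κB and AP-1 in T cells, fell in IELs. Prkcq was 7.56, 8.10 and 8.13 in IELs, 9.72, 10.05 and 9.96 in Naive-like cells and 9.47, 9.54 and 9.67 in Type-1 cells. No array of one subset overlapped another. IELs were lower by 1.98 ± 0.21 than Naive-like cells, a 3.95-fold difference (adjusted p = 8.9e-05, limma), and by 1.63 ± 0.21 than Type-1 cells (adjusted p = 0.00045). Type-1 cells were below Naive-like cells without passing (-0.35 ± 0.21, adjusted p = 0.86).

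Zap70 rose in IELs against Type-1 cells and Fyn against Naive-like cells. Zap70, the kinase that binds phosphorylated CD3 chains, was 8.62, 9.17 and 8.99 in IELs, 7.93, 7.99 and 8.31 in Naive-like cells and 7.86, 7.45 and 8.33 in Type-1 cells. IELs lay above all lymph node arrays, and rose by 1.05 ± 0.25 against Type-1 cells (adjusted p = 0.030, limma), while the difference from Naive-like cells was 0.85 ± 0.25 (adjusted p = 0.082). Fyn, a Src family kinase that shares functions with Lck, was 8.64, 8.95 and 9.25 in IELs, 7.94, 8.15 and 8.10 in Naive-like cells and 8.51, 8.34 and 8.80 in Type-1 cells. It rose in IELs by 0.88 ± 0.21 against Naive-like cells (adjusted p = 0.030), where arrays did not overlap. Type-1 arrays also lay above the Naive-like arrays, and the Type-1 and IEL ranges overlapped (difference 0.40 ± 0.21, adjusted p = 0.40). The Zap70 call ended without IEL replicate 2 or 3 or Type-1 replicate 1 or 2 (differences of 0.83 to 1.04, adjusted p of 0.079 to 0.13), and the Fyn call without IEL replicate 2 or 3 or any Naive-like array (0.73 to 0.93, adjusted p of 0.073 to 0.14). In the 6 uncoded arrays their differences were 1.24 and 0.75 (adjusted p = 0.069 and 0.23).

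Of the remaining kinases none passed. Tec and Txk, both kinases of the Tec family that act on phospholipase C, had differences of 1.10 ± 0.36 and 0.72 ± 0.29 between IELs and Naive-like cells (adjusted p = 0.13 and 0.25). For Tec the difference from Type-1 cells was 0.99 ± 0.36 (adjusted p = 0.18), which passed with a replicate block (adjusted p = 0.045), and both Tec differences passed with the description set as a term (0.025 and 0.042). Txk was 9.14, 9.94 and 10.37 in IELs, 8.98, 9.03 and 9.29 in Naive-like cells and 9.76, 9.74 and 10.20 in Type-1 cells. Type-1 arrays lay above all Naive-like arrays for Txk, and IEL replicate 1 lay below the other IEL arrays. Without that array the Txk difference between IELs and Naive-like cells was 1.06 (adjusted p = 0.024). Csk, which inactivates Src family kinases, was lower in every IEL array than in every Naive-like array, at -0.60 ± 0.21 (adjusted p = 0.18).

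**Figure D2:**
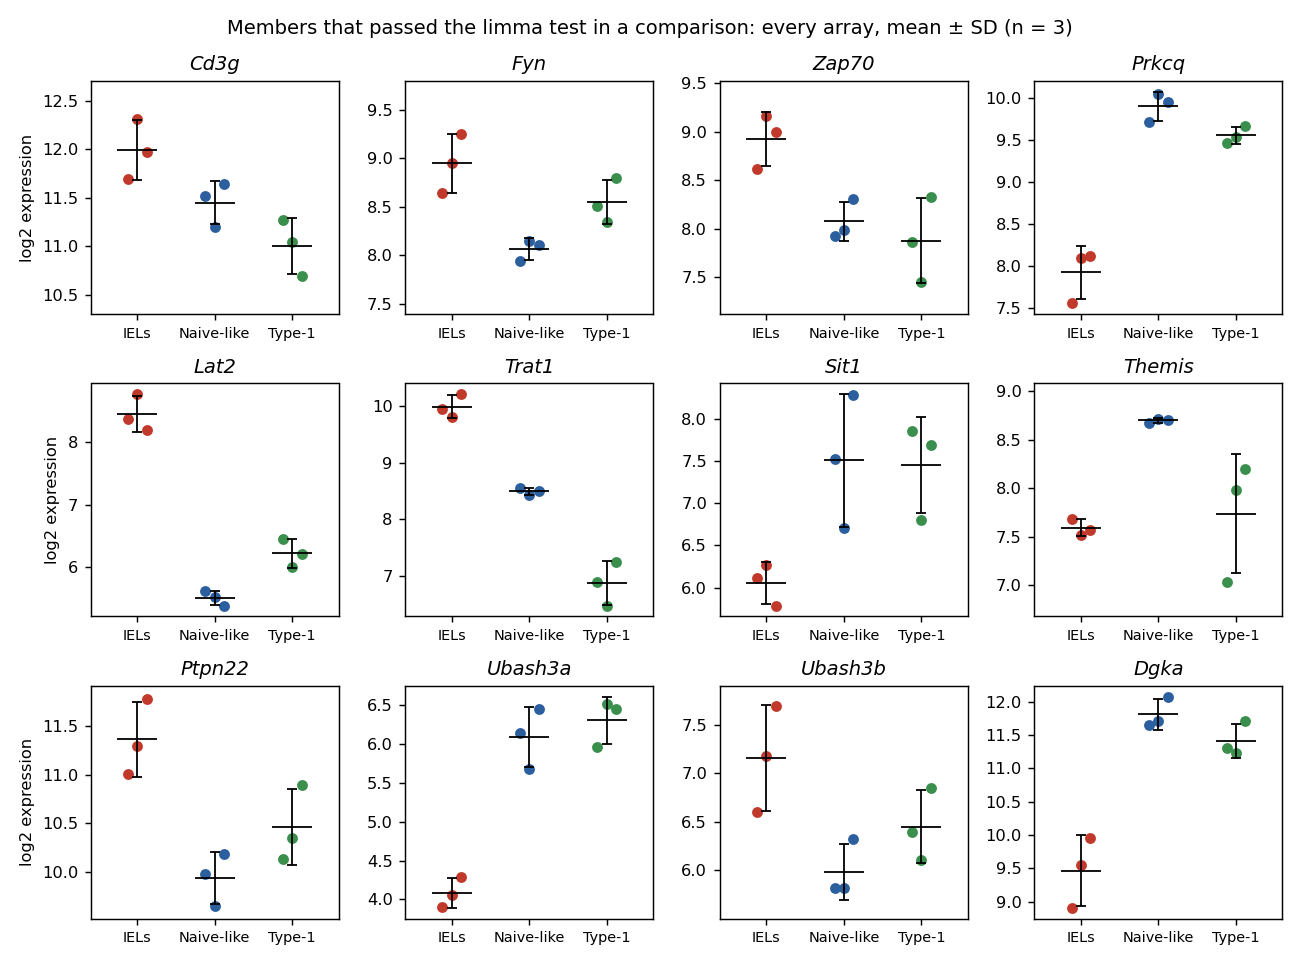
Log2 expression (vertical axis, scaled per gene) on every array of the 3 subsets (horizontal axis) for the 12 members that passed the limma test in at least 1 comparison, with replicates 1 to 3 from left to right and bars for the mean ± SD of 3 arrays. Trat1 forms 3 separate levels with IELs highest and Type-1 cells lowest, whereas for Dgka and Ubash3a both lymph node subsets sit at about one level above IELs.

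The transmembrane adaptors Trat1 and Lat2 had the largest differences of the 40 members. Lat2 encodes NTAL (also LAB), a relative of LAT best known from B cells, mast cells and natural killer cells. It was 8.38, 8.78 and 8.21 in IELs, 5.61, 5.52 and 5.38 in Naive-like cells and 6.45, 5.99 and 6.21 in Type-1 cells. The 3 subsets did not overlap, with IELs highest and Naive-like cells lowest. Lat2 rose in IELs by 2.95 ± 0.21 against Naive-like cells, a 7.74-fold difference (adjusted p = 3.9e-06, limma), and by 2.24 ± 0.21 against Type-1 cells (adjusted p = 4.7e-05). The Type-1 to Naive-like difference of 0.72 ± 0.21 did not pass (adjusted p = 0.40).

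Lat itself, the central scaffold of T cells, was 10.77, 10.36 and 10.41 in IELs, 11.18, 11.15 and 11.65 in Naive-like cells and 10.91, 10.49 and 11.01 in Type-1 cells. Every IEL array lay below every Naive-like array and overlapped the Type-1 arrays. Its difference was -0.81 ± 0.22 from Naive-like cells (adjusted p = 0.062, limma) and -0.29 ± 0.22 from Type-1 cells (adjusted p = 0.59). The Naive-like difference passed under 9 of the 21 alternatives, among them without IEL replicate 1 (-0.94, adjusted p = 0.048), and was -0.60 with the uncoded arrays alone (adjusted p = 0.43).

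Trat1 encodes TRIM, a transmembrane adaptor that associates with the CD3ζ chain and binds phosphatidylinositol 3-kinase. Its values were 9.95, 9.80 and 10.21 in IELs, 8.55, 8.43 and 8.50 in Naive-like cells and 6.90, 6.48 and 7.25 in Type-1 cells. The subsets formed 3 levels without overlap, a pattern shared by Lat2, Prkcq, Skap1 and Sh2d2a among the members (5 of 40) and by 1.79% of all genes. The smallest gap between levels was 1.17 for Trat1, beside 0.38 for Lat2, 0.048 for Prkcq, 0.040 for Skap1 and 0.00037 for Sh2d2a. With all arrays neither Skap1 nor Sh2d2a passed in any comparison. Trat1 rose in IELs by 1.49 ± 0.22 against Naive-like cells (adjusted p = 0.0013, limma) and by 3.11 ± 0.22 against Type-1 cells, an 8.62-fold difference (adjusted p = 5.7e-06). It fell by 1.62 ± 0.22 in Type-1 against Naive-like cells (adjusted p = 0.0067). This is the 1 member that passed within lymph nodes, and in the 6 uncoded arrays its adjusted p was 0.077 at a larger difference (-1.80).

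The other transmembrane adaptors did not follow Lat2 and Trat1. Sit1, an adaptor that recruits SHP phosphatases and dampens TCR signals, was 6.12, 6.27 and 5.79 in IELs, 7.53, 6.71 and 8.28 in Naive-like cells and 7.86, 6.81 and 7.69 in Type-1 cells. All IEL arrays lay below all lymph node arrays, whose own spread was wide (SD 0.79 and 0.57). Sit1 fell by 1.45 ± 0.37 in IELs against Naive-like cells (adjusted p = 0.044, limma), and the difference from Type-1 cells, -1.39 ± 0.37, missed the threshold (adjusted p = 0.053). The call against Naive-like cells ended without any one of the 3 IEL arrays, Naive-like replicate 1 or 3 or Type-1 replicate 3 (differences of -1.55 to -1.06, adjusted p of 0.055 to 0.17). It also ended with the description set as a term (adjusted p = 0.056). The Type-1 difference passed with a replicate block (adjusted p = 0.036). In the uncoded arrays the Naive-like difference was -0.92 (adjusted p = 0.43), and between the date-coded arrays -2.49. Lax1, a negative regulator related to LAT, was lower in IELs than in Type-1 cells without overlap (-0.81 ± 0.23, adjusted p = 0.078), and passed with a replicate block or the description set as a term (adjusted p = 0.033 and 0.030). Pag1, which anchors Csk at the membrane, gave -0.64 ± 0.29 against Naive-like and 0.04 ± 0.29 against Type-1 cells (adjusted p = 0.36 and 0.97).

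Themis, a T cell adaptor with a role in thymic selection that binds Grb2 and SHP-1, was 7.69, 7.52 and 7.57 in IELs, 8.68, 8.72 and 8.70 in Naive-like cells and 7.04, 7.98 and 8.20 in Type-1 cells. The Naive-like arrays lay within 0.04 of each other and above all others, while Type-1 replicate 1 lay below every IEL array. Themis fell by 1.11 ± 0.27 in IELs against Naive-like cells (adjusted p = 0.030, limma). The Type-1 to Naive-like difference, -0.96 ± 0.27, was of similar size and did not pass (adjusted p = 0.34). The call ended without any one IEL or Naive-like array (differences of -1.16 to -1.07, adjusted p of 0.058 to 0.11) and with the uncoded arrays alone (-1.10, adjusted p = 0.19).

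The remaining adaptors, all cytosolic, did not pass. Lcp2, which encodes SLP-76, was 9.83, 10.26 and 10.35 in IELs, 9.95, 10.02 and 10.13 in Naive-like cells and 9.25, 9.59 and 9.82 in Type-1 cells, with no difference past the test. IELs and Naive-like cells overlapped, and Type-1 arrays lay below both. Sh2d2a, which encodes the Lck-binding adaptor TSAd, stood out within IELs, where replicate 1 read 9.36 and replicates 2 and 3 read 10.72 and 10.76. All Naive-like and Type-1 arrays were between 8.95 and 9.34. The difference from Naive-like cells was 1.10 ± 0.32 (adjusted p = 0.079) with all arrays and 1.56 (adjusted p = 0.00070) without IEL replicate 1. From Type-1 cells it was 0.96 ± 0.32 (adjusted p = 0.13) and 1.42 (adjusted p = 0.0015).

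Grap2 (GADS), which couples SLP-76 to LAT, differed by -0.78 ± 0.26 between IELs and Naive-like cells and -0.62 ± 0.26 between Type-1 and Naive-like cells, in each case without overlap and without passing (adjusted p = 0.14 and 0.72). Skap1 and Fyb, partners in the adhesion branch that activates integrins, gave -0.57 ± 0.19 and -0.39 ± 0.21 for IELs against Naive-like cells (adjusted p = 0.14 and 0.46). Grb2, its relative Grap and the actin-linked adaptor Nck1 stayed within 0.3 log2 units in all 3 comparisons.

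Ptpn22 encodes a phosphatase that removes activating phosphates from Src family kinases and Zap70. It was 11.01, 11.30 and 11.78 in IELs, 9.98, 9.65 and 10.18 in Naive-like cells and 10.13, 10.35 and 10.89 in Type-1 cells. The IEL arrays lay above all lymph node arrays. Ptpn22 rose by 1.43 ± 0.26 against Naive-like cells, a 2.69-fold difference (adjusted p = 0.0059, limma), and the difference from Type-1 cells was 0.91 ± 0.26 (adjusted p = 0.080). The latter passed under 7 of the 21 alternatives, among them without IEL replicate 1 (1.08, adjusted p = 0.0499), with a replicate block (0.021) and with the description set as a term (0.010). The other phosphatases did not pass. Ptprc, which encodes CD45, the phosphatase that primes Src kinases, was 10.93, 11.30 and 11.43 in IELs, 11.25, 11.77 and 11.42 in Naive-like cells and 11.57, 11.25 and 11.83 in Type-1 cells, and all subsets overlapped. Ptpn6, which encodes the inhibitory phosphatase SHP-1, gave 0.01 ± 0.24 and 0.44 ± 0.24 for IELs against Naive-like and Type-1 cells (adjusted p = 1.00 and 0.42).

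Both UBASH3 genes changed in IELs against Naive-like cells, in opposite directions. Ubash3a (STS-2) and Ubash3b (STS-1) encode ubiquitin-binding proteins that restrain TCR signals, of which STS-1 is the stronger phosphatase. Ubash3a was 3.90, 4.05 and 4.29 in IELs, 6.14, 5.68 and 6.46 in Naive-like cells and 5.96, 6.52 and 6.45 in Type-1 cells. IELs lay far below both lymph node subsets, which overlapped. Ubash3a fell by 2.01 ± 0.24 in IELs against Naive-like cells and by 2.23 ± 0.24 against Type-1 cells (adjusted p = 0.00027 and 0.00014, limma). Its IEL values, 3.90 to 4.29, lay under the median of gene means (4.52).

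Ubash3b was 6.60, 7.17 and 7.69 in IELs, 5.82, 5.82 and 6.32 in Naive-like cells and 6.39, 6.10 and 6.85 in Type-1 cells. IELs lay above all Naive-like arrays and overlapped Type-1 arrays. It rose by 1.17 ± 0.29 against Naive-like cells (adjusted p = 0.038, limma), with 0.71 ± 0.29 against Type-1 cells (adjusted p = 0.24). The call ended without IEL replicate 2 or 3 or Naive-like replicate 1 or 2 (differences of 0.90 to 1.16, adjusted p of 0.12 to 0.16) and with the uncoded arrays alone (1.07, adjusted p = 0.11). The ubiquitin ligase genes Cbl and Cblb, which mark activated receptor complexes for degradation, overlapped between all subsets. Cblb means were 9.11, 9.14 and 9.13 in IELs, Naive-like and Type-1 cells.

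Of the 9 downstream effectors 1 passed, Dgka. It encodes diacylglycerol kinase α, which removes the diacylglycerol that activates RasGRP1 and PKCθ. Dgka was 8.90, 9.55 and 9.95 in IELs, 11.65, 11.71 and 12.08 in Naive-like cells and 11.31, 11.23 and 11.71 in Type-1 cells. IELs lay below both lymph node subsets, with replicate 1 lowest. Dgka fell by 2.34 ± 0.27 in IELs against Naive-like cells, a 5.08-fold difference, and by 1.95 ± 0.27 against Type-1 cells (adjusted p = 0.00017 and 0.00079, limma). Dgkz, which encodes the ζ isoform, gave -0.57 ± 0.26 and -0.41 ± 0.26 (adjusted p = 0.36 and 0.50), and its other, dim probe set, at 3.11 to 4.14, gave 0.01 and -0.42.

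None of the other 8 effectors passed in any comparison. Plcg1, the phospholipase that cleaves phosphatidylinositol bisphosphate, differed by -0.43 ± 0.34 between IELs and Naive-like cells, and IEL replicate 1 (5.77) lay more than 1 unit below its fellows (6.88 and 7.14). The exchange factors Rasgrp1, Sos1 and Vav1 were lower in Type-1 than in Naive-like cells by sign, at -0.66 ± 0.28, -0.46 ± 0.20 and -0.54 ± 0.28, with adjusted p of 0.73, 0.73 and 0.81. Was, which drives actin branching, stayed within 0.3 units throughout. Bcl10 and Malt1, partners that carry the signal to NF-κB, gave 0.33 ± 0.18 and -0.27 ± 0.30 for IELs against Naive-like cells (adjusted p = 0.50 and 0.82). All 9 effector genes were lower by sign in Type-1 than in Naive-like cells, and none passed.

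**Figure D3:**
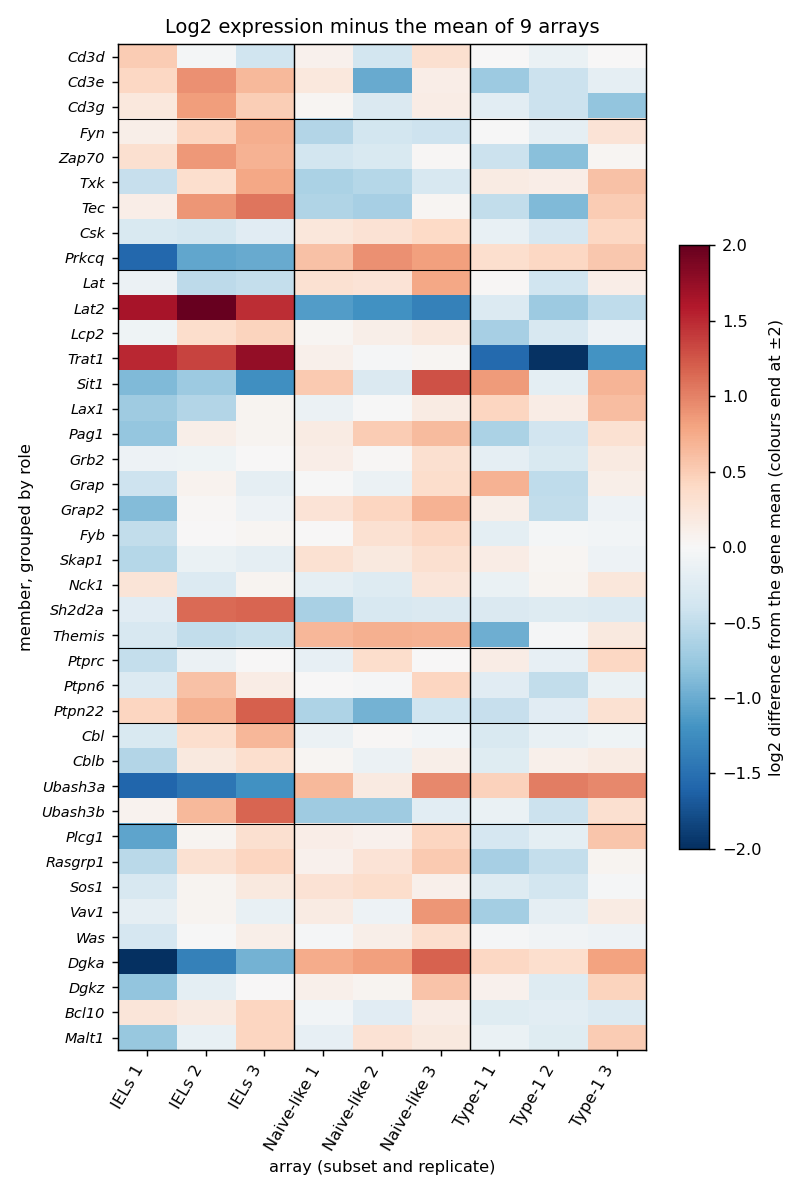
Log2 expression of each member (vertical axis, by role) on each array (horizontal axis) minus its mean over 9 arrays, with colours ending at ±2. Lat2 and Trat1 are red and Dgka, Prkcq and Ubash3a blue on all 3 IEL arrays, and IEL replicate 1 is the lowest IEL array for 31 of the 40 members.

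The IEL and Naive-like arrays did not overlap for 23 of 40 members (57.5%), beside 20.1% of all genes and 28.1% of the 7143 better expressed ones. Of these members 11 were higher in IELs and 12 lower, beside 10.9% and 9.25% of all genes. IELs and Type-1 cells were separated for 15 members (37.5%, beside 19.8% and 25.2%), of which 9 were higher and 6 lower in IELs (10% and 9.78% of all genes). Type-1 and Naive-like cells were also separated for 15 members (37.5%, beside 11.4% and 13.2%). In Type-1 cells 11 of these were lower, beside 5.11% of all genes and 9.2% of the better expressed ones, and 4 higher, beside 6.33% and 3.98%. Of the 11, Trat1 alone passed the limma test, and Lat, Lcp2, Grap2, Themis and Rasgrp1 are among the others. In 10 members every pair of subsets overlapped, namely Cd3d, Grap, Nck1, Ptprc, Cbl, Cblb, Plcg1, Vav1, Was and Malt1.

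The counts depended on which arrays were used. Shares of all genes that passed are given for the fit as reported alone, so counts under other settings or at an unadjusted p have none beside them. Without IEL replicate 1, 11 members passed in IELs against Naive-like and 9 against Type-1 cells. In limma's F test over all subsets 7 members passed (17.5%, beside 5.41% of all genes), and 12 without that array. In IELs against Naive-like cells, leaving out IEL replicate 2 or 3 or Naive-like replicate 1 lowered the count to 6. With the uncoded arrays alone 6, 5 and 0 members passed in IELs against Naive-like, IELs against Type-1 and Type-1 against Naive-like cells by the limma test, with 7 of 40 at an unadjusted p under 0.05 in the last. Every one of the 18 calls had the same sign between the 3 date-coded arrays, which had to be so because the compared groups overlapped in none of them. With the date code as a term, 13, 10 and 1 passed. In IELs against Type-1 cells, deviations of same-numbered arrays had correlations of 0.104 to 0.303, and these arrays are also of the same description set. With a replicate block 11 members passed there in place of 7. With the description set as a term 12, 11 and 1 passed in IELs against Naive-like, IELs against Type-1 and Type-1 against Naive-like cells. After a further quantile normalization the split in IELs against Type-1 cells was 4 higher and 5 lower.

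Of the 18 calls 11 held under all 21 alternatives: those of Lat2, Prkcq, Dgka and Ubash3a in both comparisons with IELs, of Trat1 in both of them, and of Ptpn22 against Naive-like cells. Subtracting array medians ended those of Fyn, Zap70, Sit1 and Ubash3b (adjusted p of 0.054 to 0.083), and fitting just the pair of subsets compared ended those of Cd3g and Zap70 (adjusted p = 0.059 and 0.069).

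The rest of the pathway was followed in a list of 54 partners, from phosphatidylinositol 3-kinase and calcium genes to MAP kinases and NF-κB, of which 41 were measured. In IELs against Naive-like cells 1 rose and 3 fell (9.76% of those measured, beside 5.19% of all genes and 9.3% of the 7143 better expressed ones). In IELs against Type-1 cells 1 rose and 2 fell (7.32%, beside 5.14% and 9.42%), so both shares were near the background of the better expressed genes. None passed in Type-1 against Naive-like cells by the limma test (5 at an unadjusted p under 0.05, without a share of all genes to set beside them). Cd5, a surface inhibitor whose level follows TCR signal strength in thymocytes, fell most in IELs, by 3.81 ± 0.25 and 3.25 ± 0.25 against Naive-like and Type-1 cells (adjusted p = 2.4e-06 and 1.1e-05). Pik3ip1, an inhibitor of phosphatidylinositol 3-kinase, fell by 1.52 ± 0.23 and 1.09 ± 0.23 (adjusted p = 0.0015 and 0.016). Cd6, a scaffold related to Cd5, fell by 1.47 ± 0.35 against Naive-like cells (adjusted p = 0.027), a call that ended without IEL replicate 1 or 2 or Naive-like replicate 1 or 3 (adjusted p of 0.097 to 0.12). Ppp3cc, a catalytic subunit of calcineurin, rose by 1.26 ± 0.21 against Naive-like cells (adjusted p = 0.0034), and Mapk9, which encodes the kinase JNK2, by 1.18 ± 0.27 against Type-1 cells (adjusted p = 0.022). The Mapk9 call ended without IEL replicate 3 or Type-1 replicate 2 (adjusted p of 0.082 to 0.11), that of Pik3ip1 against Type-1 cells without IEL replicate 2 or 3 (0.056 to 0.079), and all 3 of these calls ended with the uncoded arrays alone.

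Relatives of the members from the same gene families were a further list, chosen with earlier results of these data known, which may have raised its shares. Of 33 such genes 29 were measured. In IELs against Naive-like cells 6 rose and 3 fell (31.0%, beside 5.19% of all genes and 9.3% of the 7143 better expressed ones). Against Type-1 cells 7 rose and 1 fell (27.6%, beside 5.14% and 9.42%). In Type-1 against Naive-like cells 1 rose, beside 0.212% of all genes. That one was Fcer1g, the FcRγ chain, which can stand in for CD3ζ in receptor complexes. Fcer1g was 11.14, 10.95 and 10.84 in IELs, 4.94, 6.26 and 4.93 in Naive-like cells and 7.52, 7.63 and 8.01 in Type-1 cells, 3 levels without overlap. It rose by 5.60 ± 0.32, 3.26 ± 0.32 and 2.34 ± 0.32 in IELs against Naive-like, IELs against Type-1 and Type-1 against Naive-like cells (adjusted p = 6.8e-07, 6.2e-05 and 0.0066, limma). The last call ended without Naive-like replicate 3 (2.12, adjusted p = 0.055) and with the uncoded arrays alone (1.97, adjusted p = 0.27).

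In some families the relative changed where the member did not pass or went the other way, and these pairs were picked after their values were seen. Plcg2, the phospholipase C of B cells and natural killer cells, was 6.41, 7.67 and 7.92 in IELs, 4.03, 4.48 and 3.86 in Naive-like cells and 4.59, 4.33 and 4.06 in Type-1 cells, and rose by 3.21 ± 0.35 and 3.01 ± 0.35 in IELs against Naive-like and Type-1 cells (adjusted p = 0.00011 and 0.00021), while Plcg1 gave -0.43 ± 0.34 and -0.23 ± 0.34. Themis2 rose by 2.19 ± 0.36 and 2.35 ± 0.36 (adjusted p = 0.0026 and 0.0018), Skap2 by 1.66 ± 0.25 and 2.36 ± 0.25 (adjusted p = 0.0014 and 0.00011) and Vav3, an exchange factor for Rac, by 1.50 ± 0.31 and 1.67 ± 0.31 (adjusted p = 0.011 and 0.0062). The Vav3 call against Naive-like cells ended without IEL replicate 3 or Naive-like replicate 1 (adjusted p = 0.063 and 0.056). With the uncoded arrays alone the calls of Themis2 and Vav3 ended (adjusted p of 0.083 to 0.13). Unlike these relatives Rasgrp2, an exchange factor for Rap1, fell, by 2.08 ± 0.25 and 1.71 ± 0.25 (adjusted p = 0.00026 and 0.0013). Rasgrp1 gave -0.22 ± 0.28 and 0.43 ± 0.28 (adjusted p = 0.85 and 0.51). Nck2 fell by 2.19 ± 0.40 against Naive-like cells (adjusted p = 0.0052). Fgr, a Src family kinase typical of myeloid and natural killer cells, rose by 2.16 ± 0.29 and 1.83 ± 0.29 (adjusted p = 0.00063 and 0.0025). Its relative Fyn, a member, also rose against Naive-like cells. Syk, the relative of Zap70, did not pass (-0.10 ± 0.20 and -0.19 ± 0.20, adjusted p = 0.92 and 0.71). The difference between a member's change and its relative's was not tested.

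**Figure D4:**
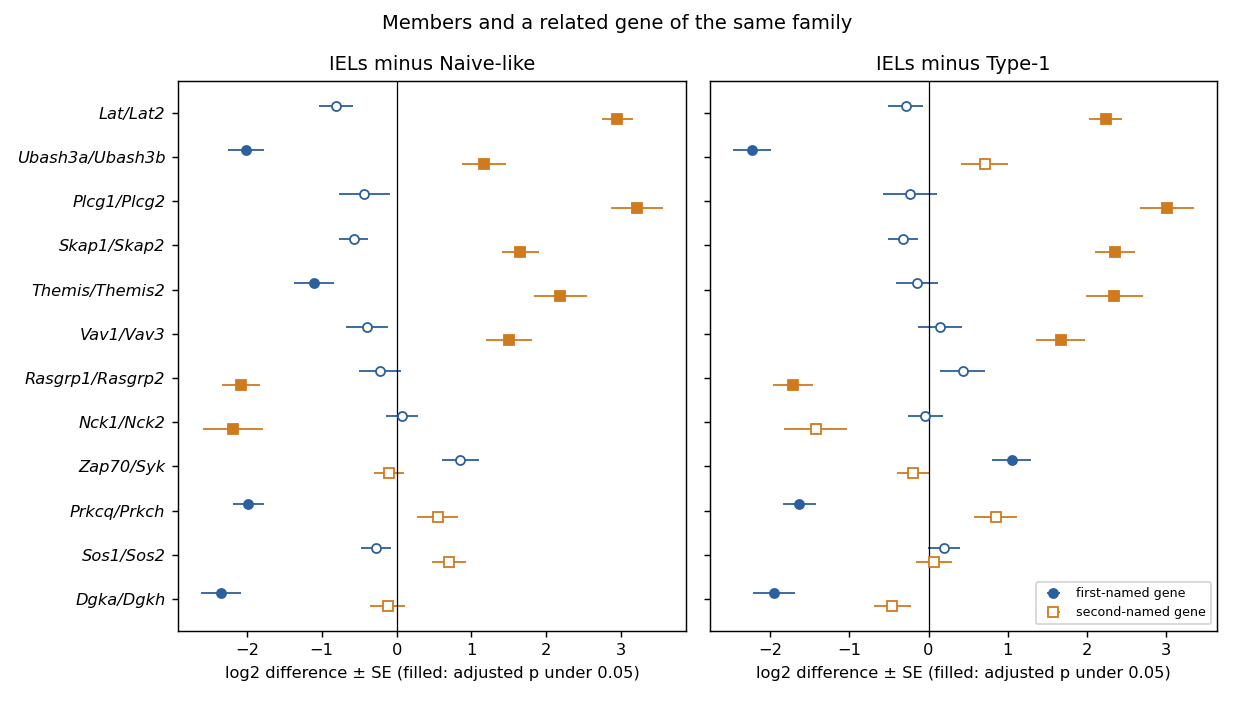
Log2 difference ± SE (horizontal axis) of 12 pairs of related genes (vertical axis) in IELs against each lymph node subset, circles for the gene named first and squares for the second, filled at an adjusted p under 0.05. For Lat/Lat2, Ubash3a/Ubash3b, Plcg1/Plcg2, Skap1/Skap2, Themis/Themis2 and Prkcq/Prkch the second gene lies to the right and the first to the left of 0 in both panels. Several of these differences did not pass, among them those of Lat and Themis against Type-1 cells (-0.29 and -0.15).

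Markers of other cells also differed in the IEL comparisons, those of natural killer cells in both directions. Of 23 genes of intestinal epithelium 16 rose in IELs against Naive-like cells, 15 rose against Type-1 cells, and none fell in either. Over all genes 3.57% and 3.73% rose in these comparisons. Their summed unlogged level was 3303 to 5297 on IEL arrays, 436 to 491 on Naive-like and 452 to 487 on Type-1 arrays, with Fabp2, an enterocyte fatty acid binding protein, at 6.52 to 8.26 in IELs and 3.29 to 3.81 elsewhere. By the summed level IEL replicate 2 was the highest of the 3, whereas Fabp2 was highest in IEL replicate 1 (8.26, beside 7.42 and 6.52 in replicates 2 and 3). Of 10 measured myeloid and mast cell markers Kit (8.75 to 10.75 in IELs, 4.48 to 6.50 elsewhere) and Itgam rose in IELs in each comparison, while Cd14, Csf1r, Adgre1 and Fcgr1 stayed below 5 on every array. Without IEL replicate 1 the Itgam calls ended (adjusted p = 0.12 and 0.060), as they did with the uncoded arrays alone (0.17 and 0.10). Of 4 measured natural killer cell markers Tyrobp and Klrb1c rose and Eomes fell in IELs against Naive-like cells, and Ncr1 did not pass there (0.04). In IELs against Type-1 cells 1 rose and 3 fell (differences of -3.41 to 3.33), of which 3 passed without IEL replicate 1 and 2 with the uncoded arrays alone. All 4 rose in Type-1 against Naive-like cells, beside 0.212% of all genes. The Klrb1c call in IELs against Naive-like cells ended without IEL replicate 1 and with the uncoded arrays alone (adjusted p = 0.12 and 0.37). With the uncoded arrays alone none of the 4 passed in Type-1 against Naive-like cells by limma (adjusted p of 0.19 to 0.50), with array medians subtracted 1 did, and without IEL replicate 1 the Ncr1 call ended (0.069). Cd8b1, the CD8β chain of αβ T cells, read 6.27 to 8.88 in IELs, 10.20 to 10.50 in Naive-like and 8.05 to 8.43 in Type-1 cells. It fell in IELs against Naive-like cells (-2.81 ± 0.47, adjusted p = 0.0031, limma), and the IEL arrays were spread, at 8.88, 7.46 and 6.27. Type-1 arrays also lay below all Naive-like arrays without passing (-2.14 ± 0.47, adjusted p = 0.14). Without IEL replicate 1 that difference passed (adjusted p = 0.0082), as did IELs against Type-1 cells (-1.34, adjusted p = 0.031). Of 7 listed αβ T cell genes 4 were measured, and Foxp3 and Cd40lg stayed below 5 on every array. Several members and relatives with higher values in IELs, among them Lat2, Ubash3b, Tec, Plcg2 and Fcer1g, are also known from these other cell types, and the part of such cells in the results was not tested. The part of any αβ T cells in the genes that were lower in IELs than in Naive-like cells was not tested either.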

How the data were processed

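RNA of sorted γδ T cells was measured on Mouse Gene 2.0 ST arrays (Affymetrix), 3 per subset, and the authors deposited 1 table of log2 values with 41345 rows, normalized by RMA with oligo per the submitters' processing notes. No tool version is given in the sources used here. RMA makes the arrays' distributions alike, and dim values are compressed. Depth has no meaning for arrays, and their number limits the precision. Rows were named through the platform annotation: 23521 have 1 symbol, 1814 several and 16010 none, and rows with several or none were not used. The row of highest mean per symbol left 22180 genes.

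Differences were fitted with limma 3.58.1 (lmFit, eBayes; R 4.3.3) over all 9 arrays without covariates, with Benjamini-Hochberg adjustment over all genes, and the fit was tested on simulated data. Alternatives covered the row per gene, a filter on dim genes, normalization, the spread model, array weights, batch terms, a replicate block and each array left out. Correlations of same-numbered arrays' deviations from their subset means were 0.104 to 0.303 for IELs and Type-1 cells, and from -0.015 to 0.38 over all 9 pairs. The labels state no pairing. In IELs and Type-1 cells same-numbered arrays are also of the same description set, so number and set cannot be told apart there. For arrays of the same description set the correlations were 0.073 to 0.38. Members, gene lists, pairs and motifs were chosen with earlier results of these data known. Every member is described, and of the partner and relative lists up to 6 genes per list and comparison, by size of difference among those that passed, were named. Vav3 and Syk were named after their values were seen. Promoters come from RefSeq (GRCm38.p6), where 34 of the 40 members and 11 of the 12 that passed have one.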

Additional observations from a re-analysis of the deposited data

How the results depend on the processing

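Of the 18 member differences that passed, 11 passed under each of the 21 alternatives, 7 lost the call under at least 1, and none reversed. The compared groups overlapped in none of the 18, so the fits on fewer arrays could not have reversed them. Among all 120 differences 30 changed sign under some alternative, none of them a call, and 15 that had not passed did so under some. The number of members called in IELs against Naive-like cells was 10, and became 16 with array weights, 6 with arrays without the date code, and 6 to 11 when 1 array was left out. In IELs against Type-1 cells 7 became 11 with cyclic loess, with array weights or with the description set as a term, and 5 to 9 with 1 array left out. In Type-1 against Naive-like cells 1 became 0 by limma with arrays without the date code (7 at an unadjusted p under 0.05), and stayed 1 with any 1 array left out. In the F test 7 became 12 after quantile normalization or cyclic loess, 17 with array weights, 11 with the description set or the date code as a term, and 5 to 12 with 1 array left out. With a replicate block the counts were 13, 11, 1 and 12 (IELs against Naive-like, IELs against Type-1, Type-1 against Naive-like and F test). For replicates 1 and 2 the Naive-like array is of another description set than the IEL and Type-1 arrays in its block. Partner counts ranged from 3 to 6, 1 to 5 and 0 to 1 in the same 3 comparisons, and counts of relatives from 6 to 12, 5 to 11 and 0 to 1. With 3 arrays a subset, differences had a median standard error of 0.24, and a difference that did not pass is not shown to be absent. No share of all genes under these alternatives is given beside the counts, and the causes of these shifts were not tested.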
